A study of Mus musculus with 4 samples.

Results

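The immediate early and heat shock genes described here were 10 genes of the 32285 in the lung single-nucleus RNA-Seq matrices: Fos, Fosb, Jun, Junb, Egr1, Atf3, Ier2, Nr4a1, Hspa1a and Hspa1b. They were taken by their symbols, with earlier results of these data known. Lungs came from 2 WT mice (C57/BL6J) and 2 VEcad-TRF2DN-Tg mice, in which the endothelial VEcad promoter drove a dominant-negative TRF2, a protein that caps telomeres. Mice were 8 to 9 weeks old per the labels. By the study's account all were male and had been kept in chronic hypoxia, so that no normoxic lung entered any comparison, and the Tg mice were bred as heterozygotes. The transgene itself was not measured here. The study asked how senescent endothelial cells (ECs) act on pulmonary hypertension. Each library came from 1 mouse, nuclei of a mouse are not replicates, and the smallest two-sided p that an exact permutation of 2 against 2 mice can give is 0.333, so that genes were tested with edgeR, which borrows the spread across genes.

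Immediate early genes are transcribed within minutes of a signal, with no need for new protein. FOS, FOSB, JUN, JUNB and ATF3 are bZIP proteins that pair with each other and bind AP-1 or CRE sites, EGR1 is a zinc finger factor, NR4A1 an orphan nuclear receptor and IER2 a nuclear protein of the same early response. Hspa1a and Hspa1b code for the stress-inducible forms of the HSP70 chaperone, which HSF1 induces when proteins misfold. Cutting, mincing and lysing a tissue can raise both kinds of transcript, and their RNA can leak from broken cells into droplets that hold no nucleus. For this reason the genes are given in barcodes with at least 1500 UMIs (unique molecular identifiers, each a counted RNA molecule), sorted into classes of nuclei, beside barcodes of 300 to 800 UMIs, which are called droplets below and were taken to stand for free RNA. There were 7688 and 10371 such droplets in WT and 18387 and 2732 in Tg, so that Tg replicate 2 had the fewest, and whether they stand for free RNA equally in each mouse was not tested.

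Positions are on mm10, from GENCODE vM21. Jun is a gene of 1 exon on the minus strand of chr4:95049034-95052222, as are Junb at chr8:84974484-84978718 and Ier2 at chr8:84661331-84662852. Hspa1a at chr17:34969190-34972156 and Hspa1b at chr17:34956436-34959238 are neighbours with 1 exon each, also on the minus strand. Fos has 4 exons on the plus strand of chr12:85473890-85477273, and Fosb has 5 on the minus strand of chr7:19302696-19310051. Nr4a1 has 8 exons on the plus strand of chr15:101254269-101274795, and Egr1 has 3, also on the plus strand. Atf3 has 4 exons on the minus strand of chr1:191170296-191218039. Atf3, with a span of 47744 bp, and Nr4a1, with 20527 bp, are the longest, and the other 8 span under 15 kb.

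The promoters of Fos, Jun, Hspa1a and Hspa1b are shown because Jun, Hspa1a and Hspa1b were the members that differed between genotypes and Fos is the founding gene of the group. The sequences are the 150 bases before the RefSeq start on GRCm38.p6, read 5′ to 3′ on the gene's strand. Capitals mark matches to the motifs searched.
Fos, plus strand, chr12:85473740-85473889: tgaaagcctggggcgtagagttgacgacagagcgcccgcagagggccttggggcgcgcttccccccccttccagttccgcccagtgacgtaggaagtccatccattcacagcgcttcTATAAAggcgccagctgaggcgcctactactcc
Jun, minus strand, chr4:95052223-95052372: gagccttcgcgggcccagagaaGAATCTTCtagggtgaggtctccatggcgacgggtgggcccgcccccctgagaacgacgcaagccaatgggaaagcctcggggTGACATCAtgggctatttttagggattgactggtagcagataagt
Hspa1a, minus strand, chr17:34972157-34972306: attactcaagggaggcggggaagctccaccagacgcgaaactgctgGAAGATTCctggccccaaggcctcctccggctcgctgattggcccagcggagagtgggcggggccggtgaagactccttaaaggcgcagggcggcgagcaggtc
Hspa1b, minus strand, chr17:34959239-34959388: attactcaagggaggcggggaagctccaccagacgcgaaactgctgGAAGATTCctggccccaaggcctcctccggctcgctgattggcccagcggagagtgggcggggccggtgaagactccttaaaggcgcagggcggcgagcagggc

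Both strands of 32851 RefSeq promoters, from 250 bases before to 50 after the start, were searched for each motif, and 8 of the 10 members had an entry. GAANNTTC, a pair of inverted heat shock units, was in 7.86% of all promoters, among them those of Jun, 128 bases before the start, and of Hspa1a and Hspa1b, 104 bases before it in both. The other arrangement of the units, TTCNNGAA, was in 8.52% of promoters and in none of the members' windows. TGACNTCA, a CRE- or AP-1-like site, was in 8.83% of promoters and, among the members, in that of Jun, 45 bases before the start. TATAAA was in 13.6% of promoters, among them that of Fos, 33 bases before the start, and that of Junb, at the start itself. The AP-1 site TGANTCA was in 7.81% and the CArG box, the site of serum response factor, in 1.63%, and neither was in these windows of the members. The promoters of Hspa1a and Hspa1b shared 296 of 300 aligned bases. Whether the transcripts of the pair are as alike was not checked. Reads that match both genes can be lost in counting, so that the separate levels of the pair are uncertain.

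The 4 libraries held 125261739 to 182014706 UMIs. Of 134745 barcodes with at least 1500 UMIs, 76502 fell into 14 classes present in every mouse, named as "like" a cell type from its markers, with 67 to 6283 nuclei a class and mouse. Smooth muscle gave no cluster of its own. When nuclei were classed 1 by 1 in place of by cluster, the secretory airway-like class held 0 to 9 nuclei a mouse and the alveolar type 2-like class 11 and 3 in Tg. The alveolar macrophage-like class then held 399 and 216 nuclei in WT and 119 and 42 in Tg, in place of 1430, 2156, 4003 and 5705. The monocyte and interstitial macrophage-like class held 20 and 46 in WT and 38 in each Tg mouse, in place of 152, 190, 339 and 781. Results in these classes rest on the clusters. Of the other classes, all but the alveolar type 1-like also held fewer nuclei in every mouse. The droplets differed between genotypes in what RNA they held: genes of 100 kb or longer took 35.6% and 31.5% of WT droplet UMIs but 12.2% and 17.7% of Tg ones, genes under 15 kb took 22.2% and 25.9% against 56.9% and 44.0%, and mitochondrial genes 0.126% and 0.151% against 0.785% and 0.685%. The same difference, at smaller size, was in the EC-like nuclei, where genes under 15 kb took 15.3% and 16.0% of UMIs in WT and 31.1% and 23.9% in Tg. As a gauge of free RNA, 7 secretory genes of the airway (Scgb1a1 among them) stood in the other 13 classes at 29.6% to 68.3% of their droplet level (WT) and at 23.4% to 40.6% of it (Tg). In the secretory airway-like class itself they stood at 38% to 60.2% of it, with Cyp2f2, Aldh1a1 and Gabrp among the markers that named its clusters. In WT replicate 1 they stood lower there, at 53.5%, than in B cell-like nuclei (68.3%) and T cell-like nuclei (60.1%). In WT replicate 2 and in both Tg mice the secretory airway-like class was the highest of the 14. Nuclei with the highest doublet scores made up 0% to 14.3% of a class in WT and 3.57% to 54.7% in Tg. The share marked in a mouse was set at 0.8% per 1000 classed nuclei, and not by a cut on the score. With 11074 and 14153 classed nuclei in WT and 21739 and 29536 in Tg, a larger share was thus marked in Tg by design. The part of these differences in the results below was not tested, except where droplets and classes are set against each other.

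**Figure D1:**
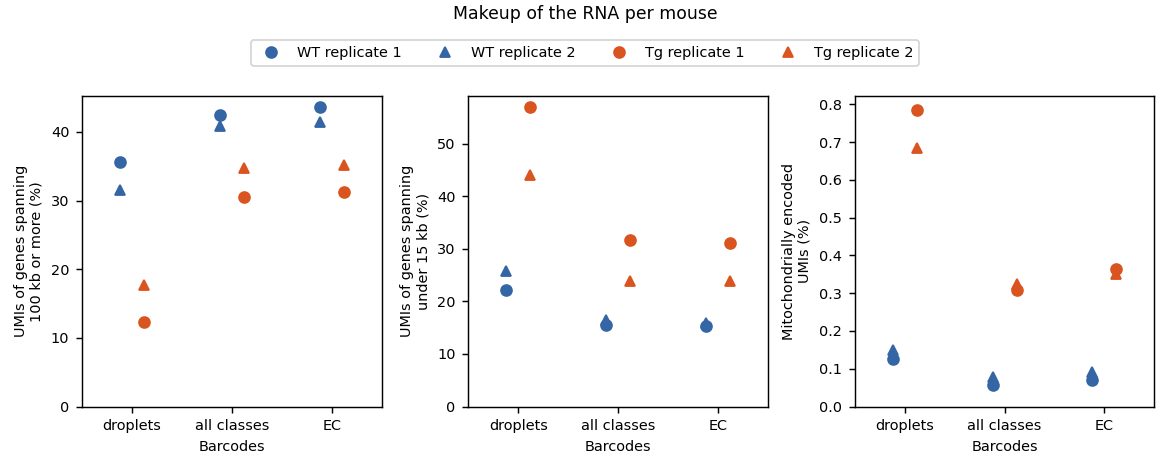
Percent of UMIs from genes of 100 kb or longer, from genes under 15 kb and from mitochondrial genes, for each mouse in the droplets, in all classes together and in the EC-like nuclei; each point is 1 mouse. Long genes took 12.2% and 17.7% of Tg droplet UMIs and 35.6% and 31.5% of WT ones.

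The droplets were compared first, since they bear on each class. The 10 members together made up 196 and 280 CPM (UMIs per 1000000 UMIs of the sum) in the WT droplets and 306 and 350 CPM in the Tg droplets. Jun, Hspa1a and Hspa1b were higher in the Tg droplets, and none of the others passed the test in either direction. This was 3 of the 9 members tested, beside a share of 14.5% of all 15180 genes tested that were called higher in the Tg droplets. At an unadjusted p under 0.05 there were 4, a count given without the share over all genes.

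Jun, the AP-1 partner of the FOS proteins, stood at 26.1 and 30.4 CPM in the droplets of WT replicates 1 and 2 and at 84.8 and 67.2 CPM in those of Tg replicates 1 and 2. Both Tg mice lay above both WT mice, with group means of 28.2 ± 3.03 and 76.0 ± 12.4 CPM (SD, n = 2 each). The log2 difference was 1.71 ± 0.29 (SE), 3.27-fold after TMM scaling (edgeR, adjusted p = 0.0179). Hspa1a was at 3.78 and 8.26 CPM in WT and at 35.0 and 25.1 CPM in Tg. Its groups did not overlap either, and the log2 difference was 2.61 ± 0.45, or 6.09-fold (edgeR, adjusted p = 0.0184). Hspa1b was at 7.02 and 15.3 CPM in WT and at 20 and 29.8 CPM in Tg, with a log2 difference of 1.35 ± 0.40, or 2.56-fold (edgeR, adjusted p = 0.0495). The lower Tg value exceeded the higher WT value by less than the gap within either group. Without Tg replicate 1, 0 of the 3 passed, with adjusted p-values of 0.202 for Jun, 0.203 for Hspa1a and 0.237 for Hspa1b, and log2 differences of 1.34, 2.14 and 1.502. Hspa1b also failed without WT replicate 1 and without Tg replicate 2.

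Ier2 stood at 30.2 and 58.6 CPM in the WT droplets and at 61.3 and 74.4 CPM in the Tg droplets, with a log2 difference of 0.84 ± 0.33 that did not pass (edgeR, adjusted p = 0.101). Fos was at 16.0 and 15.4 CPM in WT and at 15.7 and 24.1 CPM in Tg, groups that overlapped, with a log2 difference of 0.54 ± 0.27 (adjusted p = 0.177). Junb, with 36512 UMIs over all barcodes, was at 84.0 and 119 CPM in WT and at 63.9 and 104 CPM in Tg, with a log2 difference of -0.07 ± 0.27. The remaining tested members, Atf3, Egr1 and Nr4a1, had log2 differences of 0.35 ± 0.51, -0.43 ± 0.43 and -0.16 ± 0.33, and their mice overlapped between genotypes in Atf3 and Nr4a1. Egr1 was at 7.20 and 14.4 CPM in WT and below both, at 6.83 and 6.16 CPM, in Tg. Fosb, with 2 to 14 UMIs a mouse, was too rare to be tested in the droplets.

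In the nuclei, the genotypes were compared in each class on UMIs summed per mouse. Of 111 pairs of member and class that could be tested, edgeR called 6 higher in Tg and 0 lower. At an unadjusted p under 0.05, in either direction, there were 31, a count given without the share over all genes. The 6 calls are 5.41% of the pairs, beside 5.73% over all genes and classes together, so the members were called about as often as genes in general. All but 1 of the calls were of Jun: in EC-like, alveolar type 1-like, mesothelial-like, monocyte and interstitial macrophage-like and secretory airway-like nuclei. The other was Hspa1a in alveolar type 2-like nuclei. Of the 112 pairs with a mean of at least 10 UMIs, both Tg mice lay above both WT mice in 48 (42.9%), beside 31.9% over all genes that reached this mean, and below both in 16, beside 27.1% over the same genes. Without Tg replicate 1 there were 0 calls among the members, without Tg replicate 2 there were 3 and without WT replicate 2 there were 20.

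In EC-like nuclei, the cells in which the VEcad promoter is active, Jun stood at 23.2 and 30.7 CPM in WT and at 77.9 and 48.8 CPM in Tg. The Tg mice lay above the WT mice and were farther apart than the WT mice, with group means of 27.0 ± 5.27 and 63.4 ± 20.6 CPM (SD, n = 2 each). The log2 difference was 1.22 ± 0.28, 2.33-fold (edgeR, adjusted p = 0.0411). In this class 7.63% of all 14629 genes tested were called higher in Tg. With Tg replicate 1 left out, the difference was 0.82 and did not pass (adjusted p = 0.337). It also failed without Tg replicate 2, with nuclei of at least 3000 UMIs and with the droplets' profile subtracted, where it was 1.03 (adjusted p = 0.231).

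Hspa1a in EC-like nuclei was at 1.19 and 6.04 CPM in WT, from 4 and 24 UMIs, and at 15.3 and 11.1 CPM in Tg. The groups did not overlap, and the log2 difference of 1.81 ± 0.57 did not pass (adjusted p = 0.0943). Hspa1b was at 1.49 and 8.55 CPM in WT and at 13.3 and 15.6 CPM in Tg, with a log2 difference of 1.48 ± 0.58 (adjusted p = 0.145). For both genes WT replicate 1 was far below WT replicate 2. Ier2 in EC-like nuclei was at 15.8 and 25.4 CPM in WT and at 34.1 and 29.8 CPM in Tg, a log2 difference of 0.61 ± 0.26 that did not pass (adjusted p = 0.173).

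None of the remaining members passed in EC-like nuclei. Fos stood at 8.94 and 8.30 CPM in WT and at 8.84 and 11.5 CPM in Tg, a log2 difference of 0.23 ± 0.31. Junb was at 44.7 and 55.8 CPM in WT and at 30.2 and 52.0 CPM in Tg, a log2 difference of -0.30 (adjusted p = 0.476). Egr1 lay between 5.71 and 7.80 CPM in the 4 mice, with both Tg mice below both WT mice, Atf3 lay between 5.45 and 7.75 CPM and Nr4a1 between 8.34 and 12.3 CPM. Fosb had 0 and 1 UMIs there in WT and 4 and 8 in Tg, and was compared between genotypes in no class. Within the EC-like nuclei, those with markers of general capillaries held Jun at 24.8 and 30.9 CPM in WT and at 76.8 and 47.4 CPM in Tg, and those with aerocyte markers at 18.9 and 40.3 CPM in WT and at 88.9 and 67.3 CPM in Tg. Nuclei with venous markers held it at 21.8 and 20.3 CPM in WT and at 74.8 and 38.7 CPM in Tg, from 15 to 29 UMIs a mouse. In each of these, as in the whole class, both Tg mice lay above both WT mice.

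**Figure D2:**
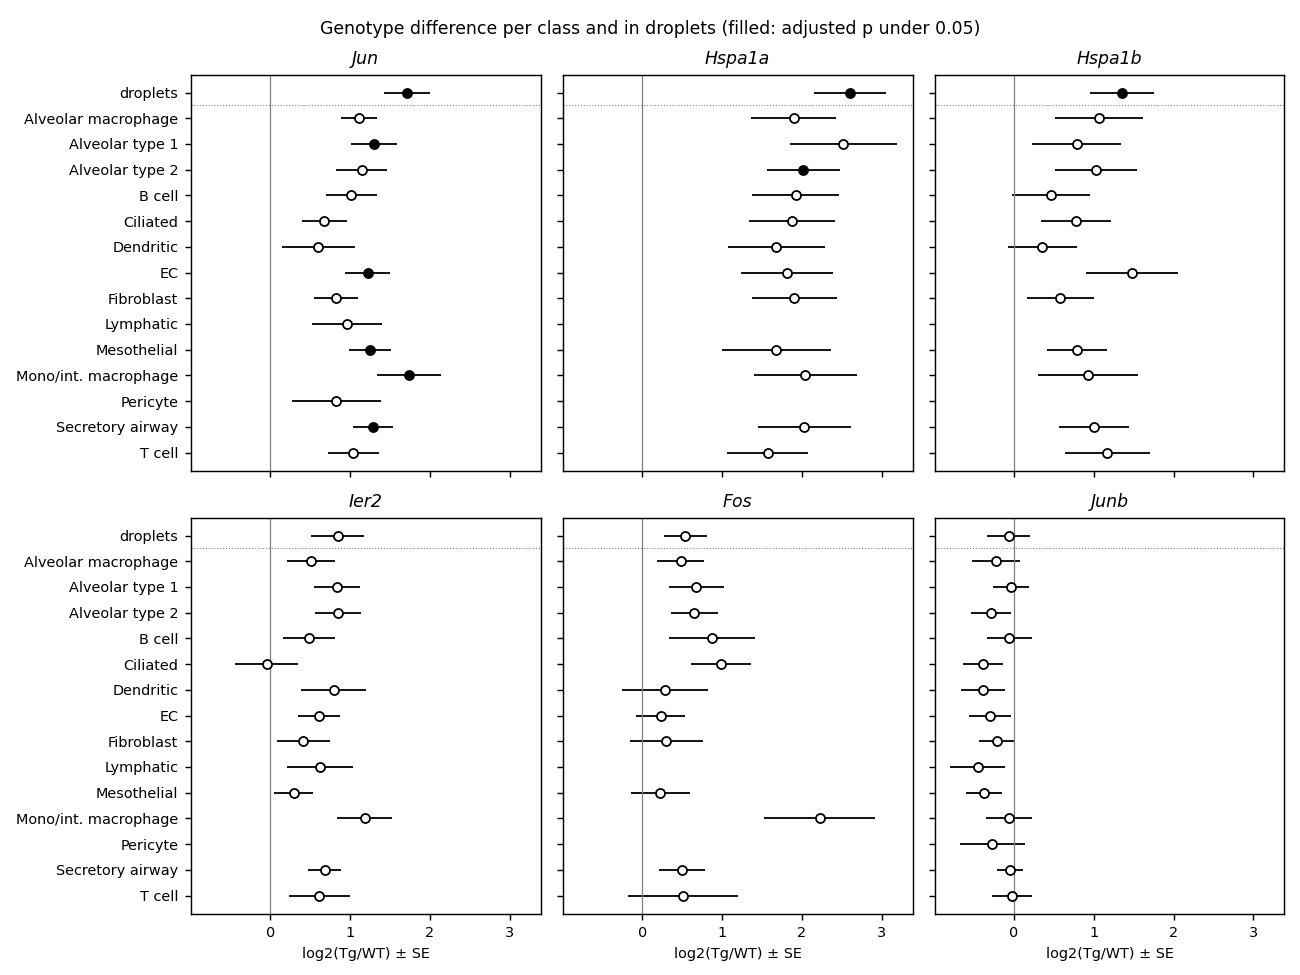
Log2 difference of Tg over WT with its SE for Jun, Hspa1a, Hspa1b, Ier2, Fos and Junb, in the droplets and in each of the 14 classes. Filled points passed the threshold of 0.05 and open points did not. Jun lay between 0.60 and 1.73 in all 14 classes and at 1.71 in the droplets.

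Over the 14 classes, ECs included, Jun gave positive differences in each, from 0.60 to 1.73 on the log2 scale, with a median of 1.07. In the mesothelial-like nuclei, which line the lung, it stood at 11.9 and 14.4 CPM in WT and at 36.4 and 27.3 CPM in Tg, a log2 difference of 1.25 ± 0.26 (edgeR, adjusted p = 0.0338). In the alveolar type 1-like nuclei it was at 12.3 and 13.8 CPM in WT and at 37.2 and 26.0 CPM in Tg, a log2 difference of 1.30 ± 0.29 (edgeR, adjusted p = 0.0457). In the monocyte and interstitial macrophage-like nuclei it was at 17.0 and 12.3 CPM in WT, from 7 and 14 UMIs, and at 57.2 and 39.8 CPM in Tg, a log2 difference of 1.73 ± 0.40 (edgeR, adjusted p = 0.0426). In the secretory airway-like nuclei it was at 12.5 and 16.1 CPM in WT and at 40.4 and 29.7 CPM in Tg, a log2 difference of 1.28 ± 0.25 (edgeR, adjusted p = 0.0280). In these 4 classes the lower Tg mouse lay above the higher WT mouse. Beside the loss of all calls without Tg replicate 1, the calls in alveolar type 1-like and secretory airway-like nuclei failed without either WT mouse, and that in monocyte and interstitial macrophage-like nuclei failed without Tg replicate 2, with DESeq2 and with nuclei of at least 3000 UMIs. The call in mesothelial-like nuclei failed without the filter on low counts (adjusted p = 0.0554) and with nuclei classed 1 by 1 (adjusted p = 0.0637), where that in alveolar type 1-like nuclei failed too (adjusted p = 0.0584). With the droplets' profile subtracted, none of the 4 calls of Jun that could be tested passed, those in EC-like, alveolar type 1-like, mesothelial-like and monocyte and interstitial macrophage-like nuclei, with adjusted p-values from 0.147 to 0.281. The log2 differences were then 1.03, 1.40, 1.57 and 2.48, in the order of these classes, so that calls were lost while the differences stayed positive. Both Tg mice lay above both WT mice in 12 of the 14 classes, beside 31.9% of pairs over all genes with a mean of at least 10 UMIs, a minimum not set here. In the pericyte-like nuclei WT replicate 1 stood at 40.0 CPM, above Tg replicate 2 at 34.8, from 9 and 26 UMIs.

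Hspa1a was positive in each of the 12 classes in which it was tested, with log2 differences from 1.57 to 2.52, a median of 1.90 and adjusted p-values from 0.0480 to 0.21. In alveolar type 2-like nuclei it stood at 1.69 and 4.67 CPM in WT and at 12.6 and 12.7 CPM in Tg, a log2 difference of 2.02 ± 0.46, or 4.05-fold (edgeR, adjusted p = 0.0480). The Tg mice were almost equal there, and the WT mice, from 17 and 57 UMIs, were not. The call was lost without Tg replicate 1 (adjusted p = 0.245), without Tg replicate 2, without WT replicate 1, with nuclei of at least 3000 UMIs and with the droplets' profile subtracted. Hspa1a had no UMI in mesothelial-like nuclei of WT replicate 1, which allows up to 1.62 CPM (3 counts, counting error only), and none in 3 further sums. Both Tg mice lay above both WT mice in 13 of the 14 classes, in the lymphatic-like nuclei from 0 to 8 UMIs a mouse. Hspa1b gave log2 differences of 0.35 to 1.48 in 12 classes, with a smallest adjusted p of 0.145, and its mice did not overlap in 10 of the 14. Over all genes with a mean of at least 10 UMIs, a minimum not set for these counts, both Tg mice lay above both WT mice in 31.9% of pairs.

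Ier2 had log2 differences of -0.05 to 1.18 in 13 classes, with a smallest adjusted p of 0.0665, and Fos of 0.23 to 2.22 in 12 classes, with a smallest adjusted p of 0.0949. The largest of Fos was in the monocyte and interstitial macrophage-like nuclei, where Fos was at 9.69 and 1.76 CPM in WT, from 4 and 2 UMIs, and at 16.4 and 23.2 CPM in Tg. Both Tg mice lay above both WT mice in 9 of 14 classes for Ier2 and in 7 for Fos. Over all genes with a mean of at least 10 UMIs, a minimum not set for these counts, this was so in 31.9% of pairs.

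Junb, which pairs with FOS as Jun does, was below 0 in all 14 classes, from -0.45 to -0.03, with a smallest adjusted p of 0.323. Egr1 ranged from -0.98 to 0.00 over 10 classes, Atf3 from -1.32 to 0.70 and Nr4a1 from -1.004 to 0.47 over 12 classes each, and none passed. Both Tg mice lay below both WT mice in 6 classes for Egr1, 5 for Atf3, 4 for Nr4a1 and 3 for Junb, of 14 each, with no minimum of UMIs. Among the 112 pairs of any member and class with a mean of at least 10 UMIs this was so in 16, beside 27.1% over all genes with this mean. Whether these members differed from Jun in their response was not tested.

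**Figure D3:**
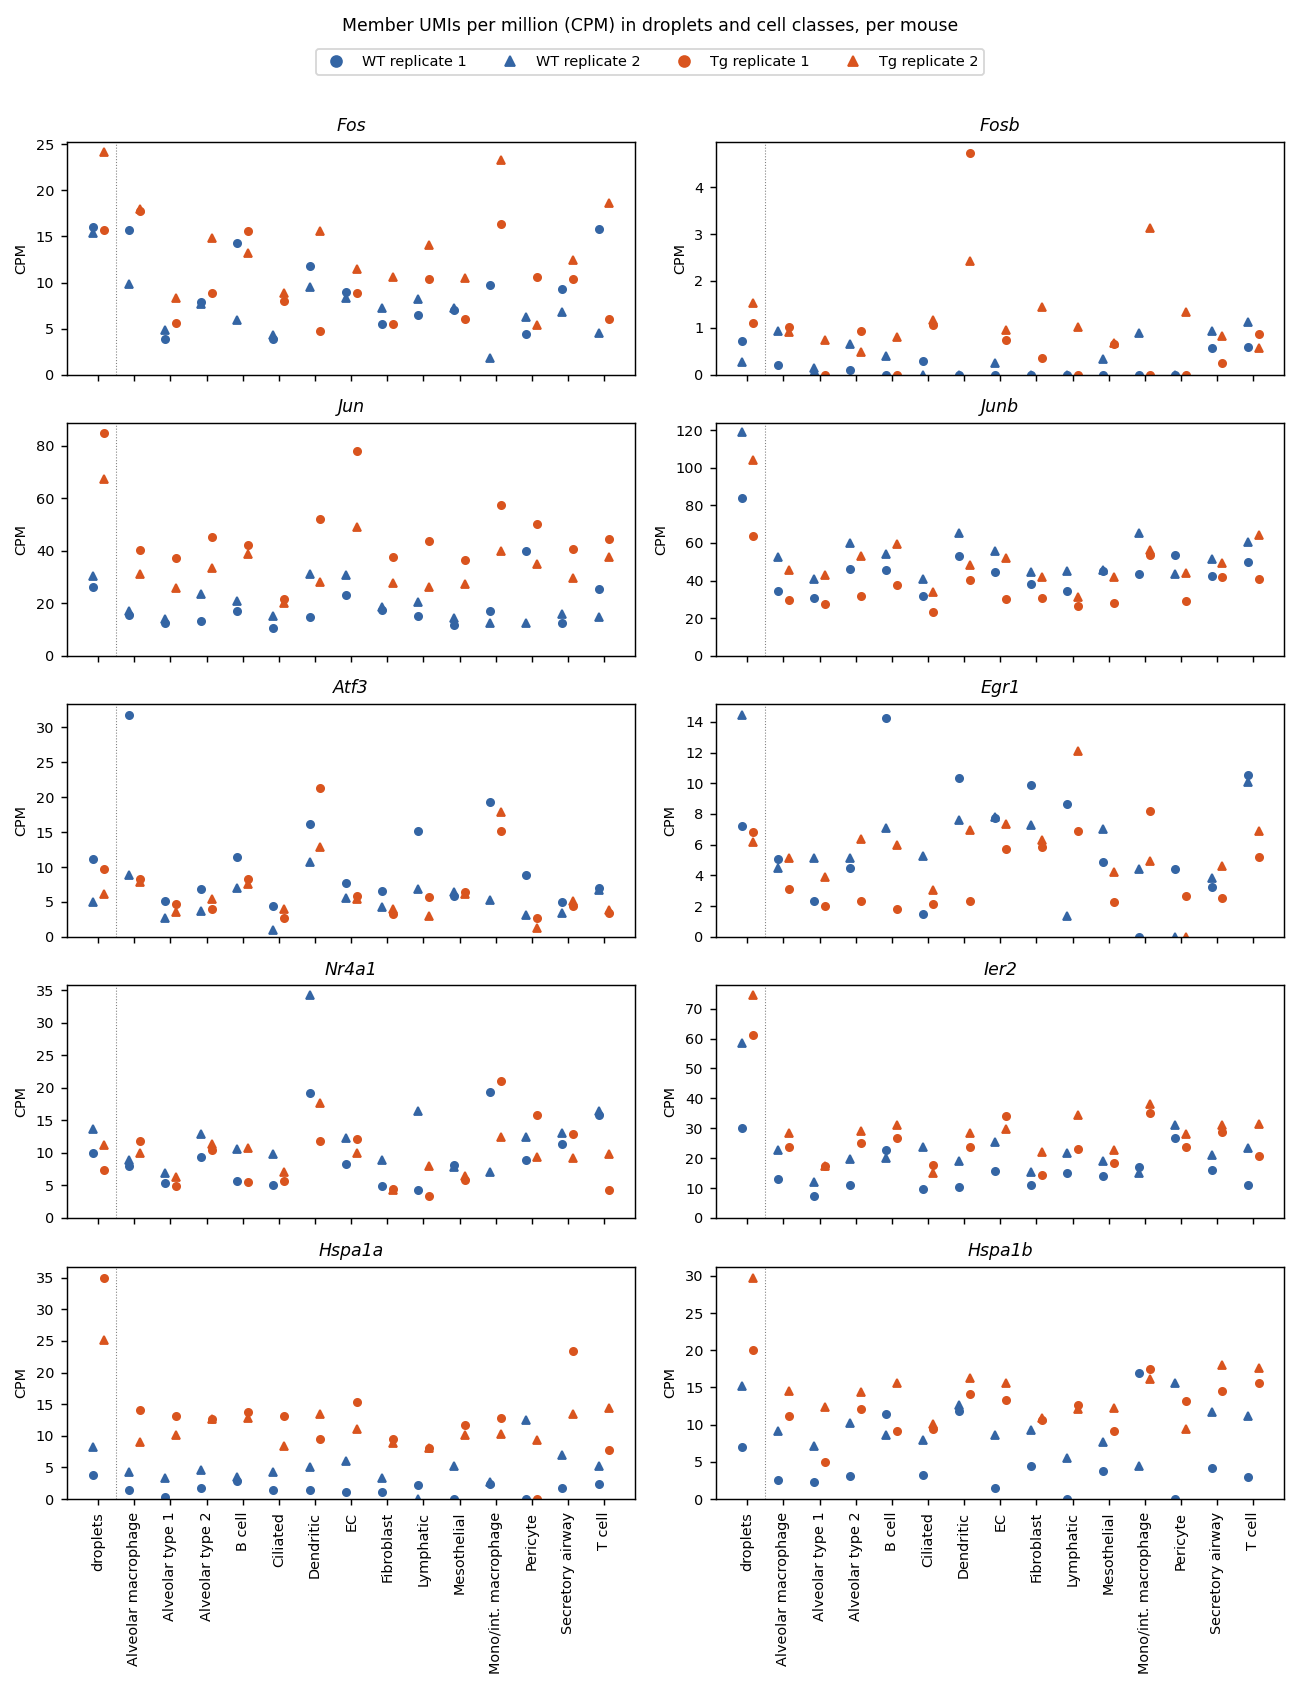
Level of each member in CPM (linear axes that start at 0) in the droplets and in each class, with 1 point per mouse, WT and Tg in separate colours. Jun stood at 84.8 and 67.2 CPM in the Tg droplets and at 77.9 and 48.8 CPM in the Tg EC-like nuclei, and in both the Tg points lie above the WT points.

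Whether a class differed between genotypes beyond its droplets was tested as an interaction, with a term for each mouse. Of 126 pairs tested, 4 were called, all lower in Tg than the droplets' difference would give, and 0 higher. The 4 are 3.17% of the pairs, beside 10.2% over all genes and classes together in either direction. At an unadjusted p under 0.05 there were 10, a count given without the share over all genes. In EC-like nuclei none passed: the difference of Jun was 0.43 smaller than in the droplets (log2 value -0.43 ± 0.22, adjusted p = 0.178) and that of Hspa1a was 0.69 smaller (-0.69, adjusted p = 0.263). A p that misses the threshold does not show that nuclei and droplets changed alike. Jun in ciliated-like nuclei, at 10.4 and 15.1 CPM in WT and 21.7 and 20.3 CPM in Tg, was called, with -1.07 ± 0.29 (edgeR, adjusted p = 0.0237). Jun in fibroblast-like nuclei, at 17.6 and 18.5 CPM in WT and 37.7 and 27.6 CPM in Tg, was called with -0.82 ± 0.27 (adjusted p = 0.0299). In both classes the Tg mice still lay above the WT mice. Fosb could be tested here in 1 class, alveolar type 2-like nuclei, with -0.40 ± 1.06 (adjusted p = 0.875). Ier2 in ciliated-like nuclei, at 9.84 and 23.6 CPM in WT and 17.9 and 15.2 CPM in Tg, was called with -0.93 ± 0.26 (adjusted p = 0.0293). Atf3 in alveolar macrophage-like nuclei stood at 31.8 CPM in WT replicate 1 and at 8.88, 8.30 and 7.87 CPM in the other 3 mice, and was called with -1.48 ± 0.37 (adjusted p = 0.0168). Without WT replicate 1 it was -1.02 and did not pass (adjusted p = 0.26). Jun in both classes failed without WT replicate 1, WT replicate 2 or Tg replicate 1, Ier2 without WT replicate 1, WT replicate 2 or Tg replicate 2, and Atf3 also without Tg replicate 1. With total UMIs in place of TMM scaling 0 of the 4 were called. With DESeq2 none of Jun and Ier2 was, and Atf3 had no adjusted p.

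The levels of nuclei and droplets of the same mouse were compared next. Of 124 pairs of member and class, 94 were lower in the nuclei than in the droplets and 2 were higher. The lower calls are 75.8% of the pairs, beside 30.5% over all genes and classes together, and the higher ones 1.61%, beside 23.3%. All genes together had median log2 differences of -0.17 to -0.04 over the classes, and these became -0.42 to 0.00 with total UMIs in place of TMM. With droplets of 100 to 300 UMIs, of which there were 95 to 113 a mouse, 42 of the 96 calls could be tested, 0 passed and 16 had the other direction, and with droplets of 800 to 1200 UMIs 95 of the 96 calls were kept.

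Ier2, Junb and Hspa1a were lower than in the droplets in all 14 classes, by 1.06 to 1.84, 0.79 to 1.51 and 0.55 to 2.17 on the log2 scale. Fos was lower in 12, the exceptions being the alveolar macrophage-like and the monocyte and interstitial macrophage-like nuclei. Hspa1b was lower in 12 too, without the dendritic-like and the monocyte and interstitial macrophage-like nuclei. Jun was lower in 13, and the exception was the EC-like nuclei, with a log2 difference of -0.19 ± 0.14 (edgeR, adjusted p = 0.291). In those nuclei Fos, Hspa1a, Hspa1b, Ier2 and Junb were lower than in the droplets by 0.91, 1.11, 0.95, 1.08 and 1.01 on the log2 scale, all past the threshold, and Atf3, Egr1 and Nr4a1 did not pass, with -0.38, -0.25 and 0.07. Egr1 was lower in 6 of 13 classes, Atf3 in 5 of 13 and Nr4a1 in 4 of 14.

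The 2 pairs that were higher were both in dendritic-like nuclei. Nr4a1 stood there at 19.2, 34.2, 11.8 and 17.7 CPM in WT replicates 1 and 2 and Tg replicates 1 and 2, against 10.1, 13.7, 7.46 and 11.3 CPM in the droplets of the same mice. Each mouse was higher in the nuclei, 1.91-fold in the fit (log2 difference 0.93 ± 0.26, edgeR, adjusted p = 0.0096). Atf3 was at 16.2, 10.8, 21.3 and 12.8 CPM, against 11.2, 5.04, 9.76 and 6.16 CPM in the droplets, again higher in each mouse, 1.85-fold in the fit (log2 difference 0.89 ± 0.27, edgeR, adjusted p = 0.0158). The nuclear values rest on 5 to 54 UMIs of Nr4a1 and 9 to 37 of Atf3 a mouse. With nuclei sorted into classes 1 by 1, Atf3 was -0.43 and Nr4a1 0.74 in this comparison, and neither passed. Atf3 also failed without WT replicate 2, without Tg replicate 2, with nuclei of at least 3000 UMIs and with droplets of 800 to 1200 UMIs, and Nr4a1 without WT replicate 2.

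As a share of the droplet level of the same mouse, the 56 sums of class and mouse had a median of 38.4% for Ier2, 40.1% for Hspa1a, 46.8% for Junb, 48.96% for Fosb, 50.03% for Fos, 51.7% for Jun, 53.4% for Hspa1b, 57.9% for Egr1, 72.1% for Atf3 and 82.8% for Nr4a1. Over the 52 sums outside the secretory airway-like class, Fosb, with 19 of 56 sums at 0 UMIs, was at or below the share of the 7 secretory genes in 23, Ier2 in 18, Hspa1a in 15, Fos in 11, Egr1 in 10, Junb in 8, Hspa1b in 7, Jun in 2, Atf3 in 2 and Nr4a1 in 1. The longest members, Atf3 and Nr4a1, had the highest shares, and this is a description of 10 genes with no test.

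**Figure D4:**
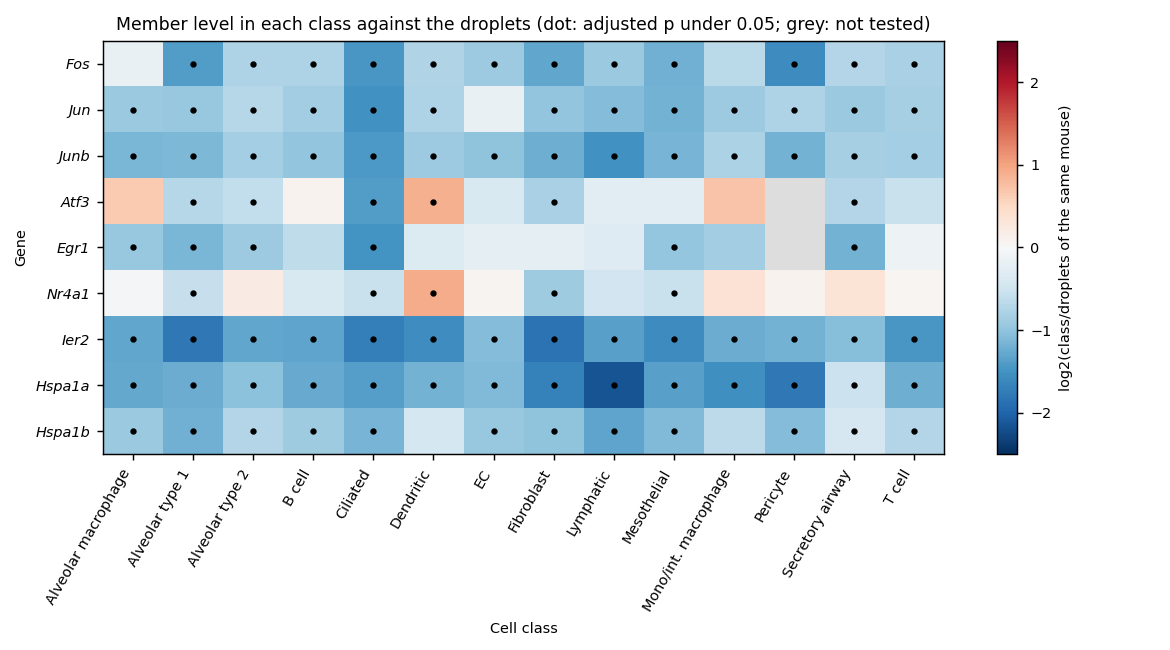
Log2 difference between each class (columns) and the droplets of the same mouse for each member (rows), as colour, with a dot where the adjusted p was under 0.05 and grey where no test could be made. The rows of Ier2, Junb and Hspa1a are below 0 and past the threshold in all 14 classes, and the 2 pairs that passed above 0 are Nr4a1 and Atf3 in dendritic-like nuclei.

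Across the 14 classes, 8 of the 9 tested members differed in level (edgeR F test with a term for each mouse), beside 90.3% of all genes tested. Hspa1b did not pass (adjusted p = 0.0691), and Hspa1a passed (adjusted p = 0.0134). For every member each of the 13 neighbouring pairs in the order of class means overlapped in their mice, so that only classes far apart in the order could be told apart by their ranges.

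The orders pool both genotypes, and with each genotype taken alone Jun was the 1 member of the 10 that had the same highest class in both. In WT this lead of the EC-like nuclei was small, at 27.0 ± 5.27 CPM against 26.3 ± 19.5 CPM in pericyte-like nuclei (SD, n = 2 each). In Tg they stood at 63.4 ± 20.6 CPM, against 48.5 ± 12.35 CPM in the monocyte and interstitial macrophage-like nuclei (SD, n = 2 each). Jun was highest in EC-like nuclei, at a mean of 45.2 ± 24.3 CPM (SD, n = 4), then in pericyte-like nuclei at 34.4 ± 16.0 CPM, and lowest in ciliated-like nuclei at 16.9 ± 5.14 CPM (adjusted p = 1.91e-07). Fos was highest in alveolar macrophage-like nuclei, the resident phagocytes of the air spaces, at 15.3 ± 3.80 CPM and lowest in alveolar type 1-like nuclei at 5.68 ± 1.94 CPM (adjusted p = 1.62e-05). Junb was highest in monocyte and interstitial macrophage-like nuclei at 54.7 ± 8.90 CPM, followed by T cell-like nuclei at 53.8 ± 10.6 CPM, and lowest in ciliated-like nuclei at 32.4 ± 7.30 CPM (adjusted p = 1.06e-06). Atf3 was highest in dendritic-like nuclei at 15.3 ± 4.59 CPM and in monocyte and interstitial macrophage-like nuclei at 14.4 ± 6.34 CPM, and lowest in ciliated-like nuclei at 3.07 ± 1.57 CPM (adjusted p = 8.74e-10).

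Nr4a1 also led in dendritic-like nuclei, at 20.7 ± 9.55 CPM, and was lowest in fibroblast-like nuclei at 5.64 ± 2.204 CPM (adjusted p = 5.33e-07). Egr1 was highest in T cell-like nuclei at 8.18 ± 2.56 CPM and lowest in pericyte-like nuclei at 1.77 ± 2.18 CPM, with 2 of the 4 pericyte-like sums at 0 UMIs (adjusted p = 0.000399). Ier2 was highest in pericyte-like nuclei at 27.4 ± 3.06 CPM, though in Tg these stood at 25.9 ± 3.01 CPM, below the monocyte and interstitial macrophage-like nuclei at 36.5 ± 2.08 CPM (SD, n = 2 each), and lowest in alveolar type 1-like nuclei at 13.6 ± 4.86 CPM (adjusted p = 0.00023). Hspa1a ran from 11.3 ± 9.31 CPM in secretory airway-like nuclei to 4.57 ± 4.13 CPM in lymphatic-like nuclei, a difference in means smaller than the SD of the mice in the former class, and did not pass without WT replicate 2, Tg replicate 1 or Tg replicate 2. With the droplets' profile subtracted, 5 of the 9 differed across classes, and Junb, Hspa1a and Ier2 no longer did.

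Fosb, the rarest member, had 177 UMIs in all classes and 413 in all barcodes, and 19 of its 56 sums were at 0. Its highest mean was 1.79 ± 2.27 CPM in dendritic-like nuclei, where the lowest mouse had none.

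Single nuclei held few copies. Thinned to 1500 UMIs each, 15.5% and 20.9% of the classed WT nuclei and 21.2% and 24.2% of the Tg ones held a UMI of any member. The higher WT mouse lay just below the lower Tg mouse, and unthinned the genotypes overlapped (28.5% and 40.6% against 34.1% and 42.7%). Class by class, the thinned shares overlapped in some classes and not in others. T cell-like nuclei stood at 19.3% and 23.6% in WT and at 19.7% and 29.5% in Tg. EC-like nuclei stood at 17.0% and 23.0% in WT and at 27.2% and 27.9% in Tg. No such share over other genes is given. Barcodes of at least 1500 UMIs in clusters close to the droplets' profile had a UMI of any member in 21.3%, 30.04%, 36.8% and 39.1% when thinned alike, more than all classed nuclei of the same mouse in each. Of 76502 nuclei, 950 (1.24%) held at least 3 different members, and none held more than 6. The shares with a UMI of a given member, unthinned, ran over classes and mice from 7.49% to 27.9% for Junb, from 3.61% to 18.7% for Jun and from 0% to 5.97% for Hspa1a.

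The other genes of these responses were read from 3 lists. The share of UMIs from genes under 15 kb was larger in Tg than in WT, as given above. The part of gene length in the genotype counts of the 3 lists was not tested. Of 26 further chaperones, 9 (34.6%) were higher in the Tg droplets, beside 14.5% of all genes, and 0 lower, with a median log2 difference of 0.69, beside 0.04 for all genes. With total UMIs in place of TMM 6 were higher, with a median of 0.45, beside -0.22 for all genes. Hspb1, a small heat shock protein, stood at 15.7 and 44.9 CPM in the WT droplets and at 174 and 125 CPM in the Tg droplets, a log2 difference of 2.58 ± 0.52 (edgeR, adjusted p = 0.022). Hspe1, the mitochondrial co-chaperonin, rose too, by 2.32 ± 0.42 on the log2 scale (adjusted p = 0.019), and the others called were Cryab, Hspa8, Dnajb1, Hsp90ab1, Ahsa1, Dnaja1 and Hspa2. In the classes, 50 of 357 pairs of chaperone and class (14.01%) were higher in Tg, beside 5.73% over all genes and classes, and 0 lower, in 12 of the 14 classes. In EC-like nuclei 7 of 26 (26.9%) rose, beside 7.63% of all genes. Without Tg replicate 1 these counts were 0 in the droplets, 5 over the classes and 0 in EC-like nuclei, and without Tg replicate 2 they were 3, 27 and 1. Without WT replicate 2 they were 11, 124 and 10. The medians without Tg replicate 1 were 0.69 in the droplets, 0.41 over the classes and 0.44 in EC-like nuclei, beside 0.69, 0.42 and 0.37 with all mice. With the droplets' profile subtracted, 9 of 292 pairs over the classes and 0 of the 26 genes in EC-like nuclei passed, while the medians were larger, at 0.64 and 0.89. Cryab, a small heat shock protein and lens crystallin, stood there at 10.4 and 14.6 CPM in WT and at 62.3 and 45.1 CPM in Tg, a log2 difference of 2.08 ± 0.27 (edgeR, adjusted p = 0.009). Hspb1 was at 8.94 and 20.4 CPM in WT and at 67.2 and 52.4 CPM in Tg, with 2.00 ± 0.35 (adjusted p = 0.017).

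Of 40 further immediate early genes, 38 were tested in the droplets, and 6 (15.8%) were higher in Tg, beside 14.5% of all genes, and 0 lower, with a median of 0.19, which was -0.05 with total UMIs in place of TMM. Gadd45b, a stress-induced regulator of p38 and JNK signalling, stood there at 9.72 and 9.80 CPM in WT and at 48.6 and 25.7 CPM in Tg, a log2 difference of 2.26 ± 0.43 (edgeR, adjusted p = 0.020), and the others were Gadd45g, Cebpd, Klf4, Btg2 and Ier3. In the classes 16 of 482 pairs (3.32%) were higher, beside 5.73% over all genes and classes, and 1, Dusp2 in alveolar type 1-like nuclei, was lower. Klf4, a Krüppel-like factor that endothelium expresses under flow, was 1 of the 2 of 37 (5.41%) that rose in EC-like nuclei, beside 7.63% of all genes, at 77.8 and 88.0 CPM in WT and 165 and 133 CPM in Tg, with a log2 difference of 0.83 ± 0.19 (edgeR, adjusted p = 0.039). The other was Gadd45b, with 1.86 ± 0.34 (adjusted p = 0.020). Without Tg replicate 1 the counts were 0 in the droplets, 1 over the classes and 0 in EC-like nuclei, and without Tg replicate 2 they were 2, 14 and 0. Without WT replicate 2, 7 were higher in the droplets, 27 over the classes and 3 in EC-like nuclei, and 1, 5 and 1 were lower. In the droplets 2 passed without WT replicate 1 and 3 with total UMIs in place of TMM.

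The 20 genes of the upstream list code for factors and kinases of the signalling and stress pathways that regulate such genes. The few calls among them were lower in Tg, and over the classes their share was close to that of all genes. In the droplets 4 of the 20 (20%) fell, beside 11% of all genes called lower there, and 0 rose, with a median of -0.62. Mrtfa and Mrtfb, the actin-sensing partners of serum response factor, fell by 1.17 and 1.12 on the log2 scale (edgeR, adjusted p = 0.025 for both), and Mapk8, which codes for the kinase JNK1, and Atf1 fell as well. None passed without either Tg mouse, and 2 did without WT replicate 1. In EC-like nuclei none of the 20 passed, with a median of -0.28, and 5 were lower without WT replicate 2. Over the classes 4 of 263 pairs (1.52%) were lower in Tg and 0 higher, beside 1.27% of all genes and classes called lower. These 4 were Mrtfa, Atf1, Elk4 and Mapk8, all in secretory airway-like nuclei, and 0 passed without WT replicate 1, without either Tg mouse or with the droplets' profile subtracted, whereas 16 did without WT replicate 2. Against the droplets of the same mouse, 125 of 274 pairs of upstream gene and class were higher in the nuclei and 29 lower, whereas 9 of 364 chaperone pairs were higher and 235 lower, and 17 of 519 immediate early pairs were higher and 372 lower. Over all genes and classes 23.3% were higher and 30.5% lower. The part of gene length in these counts, as in the genotype counts above, was not tested.

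**Figure D5:**
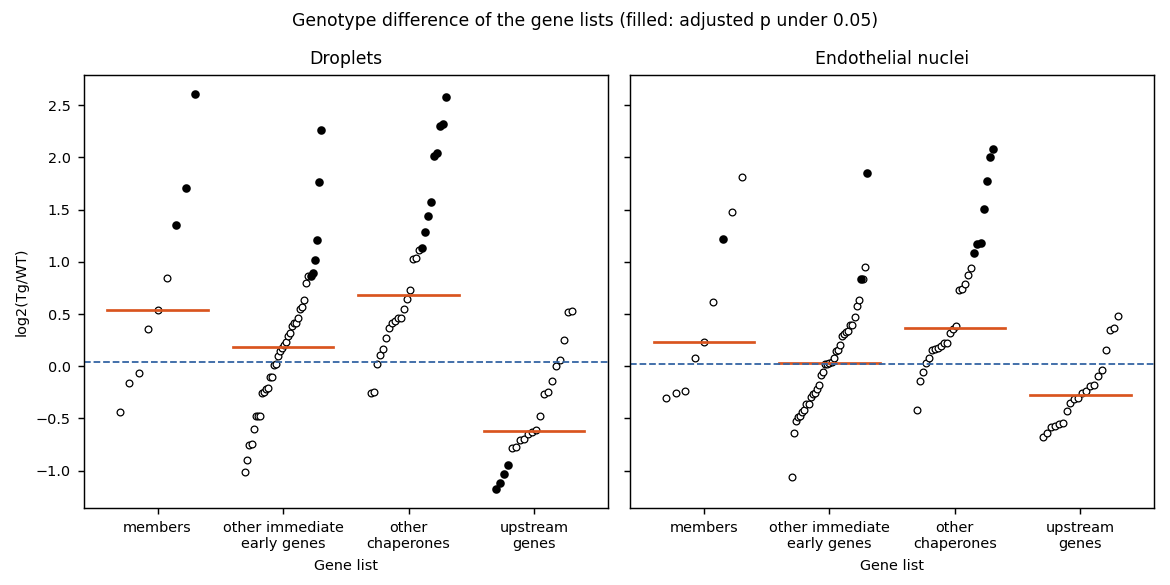
Log2 difference of Tg over WT for the members and the genes of each list in the droplets and in EC-like nuclei, 1 point per gene tested, with the list's median as a bar, the median of all genes as a dashed line and genes past the threshold filled. In the droplets the medians were 0.69 for the chaperones, 0.19 for the other immediate early genes and -0.62 for the upstream genes. With total UMIs in place of TMM they were 0.45, -0.05 and -0.85.

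The genes whose level followed a member most closely over the 56 sums of class and mouse were found among 16869 genes with at least 200 UMIs, by Pearson's r of log2(CPM + 1). The sums share libraries, depth and free RNA, so that r is a description. For Fos they were Mmp19 (r = 0.71), Ctsk (0.71), Epn1 (0.70), Usf2 (0.69) and Clec4n (0.68). For Hspa1a they were Trappc6a (0.84), Mrpl41 (0.84), Tomm6 (0.83), mt-Nd1 (0.83) and Cox6b1 (0.83). Of these, mt-Nd1 is mitochondrially encoded, and Mrpl41, Tomm6 and Cox6b1 are nuclear genes for mitochondrial proteins. Among the members, Hspa1b and Hspa1a had r = 0.67 and Jun and Hspa1a 0.54, whereas Fos had 0.39 with Jun, 0.36 with Atf3 and 0.11 with Junb.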

How the data were processed

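Nuclei were isolated from the lungs of 2 WT and 2 Tg mice and read on the 10x 3′ platform. The authors deposited, per mouse, an unfiltered matrix of whole-number UMI counts of 32285 genes by barcode, with lists of genes and barcodes, made with Cell Ranger 6.1.1 against mm10 (per the labels) with intron reads counted. The authors' own filters (low-quality nuclei, doublets, decontX) are not in these counts. Whether overlapping or antisense genes share reads was not checked. The members, gene lists and tests were chosen with earlier results of these data known. All 10 members are named. Per list, comparison and class described, the genes called are counted and those with the largest changes named.

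Barcodes with at least 1500 UMIs were clustered per mouse (2000 variable genes, 30 components, 15 neighbours, Leiden at a resolution of 1.5, leidenalg 0.10.2). Names needed 3 or more class markers that were 1.75-fold higher inside a cluster than outside. Of 213 clusters, 166 had a class, 5 were close to the droplets' profile (49171 barcodes), and 2743 barcodes in clusters with markers of several classes were left out. The 49171 were 14947 of 26933 barcodes in WT replicate 1 and 23517 of 38543 in WT replicate 2. In Tg they were 674 of 25269 in replicate 1 and 10033 of 44000 in replicate 2. This step thus took out a larger share in WT, and its part in the results was not tested. Doublets were scored against simulated ones and kept in the main values. Neuroendocrine-like nuclei (as few as 15 in a mouse) were not tested. Of the barcodes, 0.653% to 1.30% were shared by 2 libraries, which is counted on barcode sequence alone. UMIs were summed per mouse and class (224842 to 19558018 UMIs a sum, classes of at least 20 nuclei in every mouse) and over droplets (1949156 to 12600100 UMIs).

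edgeR 4.0.16 in R 4.3.3 fitted all genes that passed filterByExpr with a minimum of 10 (TMM, quasi-likelihood test, Benjamini-Hochberg, threshold 0.05). SEs are the log2 difference over the root of F. Class against droplets and the interaction had a term for each mouse. The scripts were tested on simulated data. Alternatives: DESeq2 1.42.0 (likelihood ratio test across classes), no TMM, no filter, each mouse left out, nuclei of at least 3000 UMIs, highest doublet scores dropped, nuclei classed 1 by 1, the droplets' profile subtracted, the replicate number as a block, droplets of 100 to 300 UMIs and, added after the data were seen, droplets of 800 to 1200. Promoters came from RefSeq (GRCm38.p6). The labels give no pairing of mice across genotypes. Intervals and floors cover counting error only.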

Additional observations from a re-analysis of the deposited data

Results flagged for a closer look

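In 4 pairs of member and class the genotype difference in the nuclei differed from that in the droplets of the same mice, by the interaction test: Atf3 in alveolar macrophage-like nuclei (log2 difference of -1.48), Jun in ciliated-like nuclei (-1.07), Ier2 in ciliated-like nuclei (-0.93) and Jun in fibroblast-like nuclei (-0.82). Jun stood higher in Tg than in WT in both kinds of sum. The difference was smaller in the nuclei, where it passed the genotype test in neither of the classes. Atf3 was at 31.8 CPM in WT replicate 1 against 7.87 to 8.88 CPM in the other mice, and without WT replicate 1 its log2 value was smaller in size but still negative. Of the 4, Atf3 and Ier2 failed when WT replicate 1 was left out, and so did both of Jun.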

How the results depend on the processing

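Leaving out a mouse leaves 1 in its group, assumed to vary like the others. The counts under each alternative, here and above, stand without the share of all genes called under the same setting. A larger count therefore does not set the members or a list apart from genes in general. The replicate numbers are no pairing by the labels, and deviations of same-numbered mice correlated at -0.0288 to 0.278 over 15 sums, over 0.1 in 8. Over the classes, the 50 chaperone pairs higher in Tg were 81 with DESeq2, 111 without the filter and 93 with the replicate block, the 16 other immediate early pairs 40 without the filter and 31 with the block (7 and 8 lower in place of 1), and the 4 upstream pairs lower 16 without the filter and 11 with the block. With the replicate block, 2 upstream genes were lower in EC-like nuclei in place of 0, 17 pairs of member and class were higher in Tg in place of 6, and 4 members in place of 3 in the droplets. The 6 became 10 with DESeq2, 23 without the filter, 3 with nuclei of at least 3000 UMIs, 3 with nuclei classed 1 by 1 (where 3 of the 6 could be tested and 1, Jun in EC-like nuclei, passed), 0 with the droplets' profile subtracted and 0 to 20 without 1 mouse. Pairs lower in Tg, 0 in the main values, were 1 without the filter and 0 to 1 without 1 mouse. The 3 members in the droplets were 4 with droplets of 800 to 1200 UMIs and 0 to 4 without 1 mouse, and with droplets of 100 to 300 UMIs no member passed the filter. The 2 pairs higher than the droplets were 1 with nuclei of at least 3000 UMIs, 1 with nuclei classed 1 by 1 (another pair, Atf3 in alveolar macrophage-like nuclei), 0 with droplets of 100 to 300 UMIs, 1 with those of 800 to 1200 and 1 to 3 without 1 mouse. The 94 lower ones were 0 with droplets of 100 to 300 UMIs, where 42 of these 96 pairs could be tested, and 77 to 92 without 1 mouse. The 4 interactions were 0 with DESeq2, 0 without TMM, 0 with at least 3000 UMIs, 1 with doublets dropped, 0 with nuclei classed 1 by 1, 0 with droplets of 100 to 300 UMIs and 0 to 5 without 1 mouse, where 0 to 1 were higher. The 8 members that differed across classes were 4 with nuclei classed 1 by 1, 5 with the profile subtracted and 7 to 9 without 1 mouse. With droplets of 100 to 300 UMIs, which held 18999 to 20456 UMIs a mouse, Fos (0.17) and Junb (0.12) in EC-like nuclei against droplets, Atf3 in alveolar macrophage-like nuclei (9.67) and Ier2 in ciliated-like nuclei (0.087) in the interaction turned. With nuclei classed 1 by 1, Atf3 in dendritic-like nuclei (-0.43) and the interaction of Jun in fibroblast-like nuclei (0.17) turned. Adjusted p-values over the alternatives ran from 5.23e-07 to 0.202 for Jun and from 5.39e-11 to 0.203 for Hspa1a in the droplets, and from 9.04e-06 to 0.337 for Jun in EC-like nuclei. Without TMM the median log2 difference of all genes in the droplets was -0.22 in place of 0.04, and the same 3 members were called. The cause of these changes was not tested.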

Other observations

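Barcodes of at least 1500 UMIs in clusters close to the droplets' profile, which entered no comparison, held Jun at 27.2 and 35.2 CPM in WT and at 80.8 and 63.4 CPM in Tg, and Hspa1a at 2.86 and 10.7 CPM in WT and at 37.0 and 25.1 CPM in Tg. Fos was at 15.9 and 15.8 CPM there in WT and at 18.05 and 28.4 CPM in Tg. Of these 49171 barcodes, 324 (0.659%) held at least 3 members. Over all barcodes of a library, Jun was at 22.0 and 26.7 CPM in WT and at 60.3 and 40.6 CPM in Tg.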
